A study of Sus scrofa with 9 samples.

Results

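Mitochondrial ribosomal protein genes were followed in the spleen of Ningxiang pigs, a Chinese indigenous breed, at postnatal days 30, 90 and 210. They were taken from the deposited gene table as the loci described as a 39S or a 28S ribosomal protein, with a mean of at least 1 fragment per kilobase and library size (FPKM) over the 9 libraries. Where a name occurred at several loci, the locus with the highest mean FPKM was kept. Of 28095 loci in the table, 79 carried such a name and 75 of these reached the minimum. After 2 second loci of a name were set aside, 73 genes remained, of which 47 were named 39S and 26 were named 28S. The lowest gene inside the limit was MRPL14 with a mean of 1.64 FPKM, and the highest locus outside it was a locus named as S17-like with 0.268 FPKM. Each age had 3 libraries of whole spleen with no treatment, genotype or sex given in the labels. The labels do not say that the libraries came from separate animals, so the p-values below measure the spread between these samples, which may be technical. In whole tissue, fewer cells of a type and less RNA per cell cannot be told apart.

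The mitochondrial ribosome translates the few proteins that mitochondrial DNA encodes, all of them subunits of the respiratory chain or of ATP synthase. Its rRNAs come from mitochondrial DNA, but all of its proteins are encoded in the nucleus, made in the cytosol and imported. The small 28S subunit binds the mRNA and reads the codons, and the large 39S subunit joins the amino acids and holds the exit tunnel. Some of its proteins descend from bacterial ribosomal proteins and keep their numbers, while others are found in mitochondria and not in bacteria. By their numbers, 40 of the 73 genes belonged to the first kind (27 named 39S and 13 named 28S) and 33 to the second (20 named 39S and 13 named 28S).

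The 9 libraries held 48930557 to 62119158 counted reads, and the 73 genes took 0.10% to 0.123% of them. Defining markers of spleen cells were present in every library, with the summed FPKM of 6 red pulp macrophage genes between 866 and 1725 and that of 7 B cell genes between 73.0 and 143. Markers of skeletal muscle and pancreas stayed at or below 1.2 FPKM in sum, and 3 adipocyte genes summed to 1.64 to 2.57 FPKM at day 30, 0.306 to 0.944 at day 90 and 0.457 to 0.729 at day 210. Of these, ADIPOQ was at 0 in 8 of the 9 libraries and FABP4 held most of the day 30 sum. APOA1, taken as a liver marker, was at 35.2 to 54.2 FPKM at day 30, 15.96 to 20.1 at day 90 and 27.2 to 30.9 at day 210, and fell at day 90 against day 30. Markers of other cells moved with age, and 10 erythroid genes summed to 112 to 241 FPKM at day 30, 14.99 to 32.5 at day 90 and 10.8 to 26.9 at day 210.

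As levels, the 73 genes spanned a 9.19-fold range, with a median of 5.93 FPKM beside 2.87 FPKM for the 19264 loci of the table with a mean of at least 1 FPKM. Their median lay below the 13.7 FPKM of 64 nuclear respiratory chain loci and far below the 123 FPKM of 65 cytosolic ribosomal protein loci. The 9 genes above 10 FPKM were led by MRPL41, a mitochondria-specific protein of the large subunit, with a mean of 15.1 FPKM. It was followed by MRPS25 (11.9 FPKM), MRPS26 (11.8 FPKM), MRPS18A (11.7 FPKM) and MRPL43 (11.3 FPKM), of which MRPS18A is a homologue of bacterial S18 placed in the large subunit. The lowest levels belonged to MRPL14 (1.64 FPKM), MRPL36 (1.80 FPKM), MRPL33 (1.84 FPKM), MRPS12 (1.84 FPKM) and MRPS30 (1.94 FPKM). MRPS12 is the counterpart of the bacterial protein at the decoding centre, and MRPS30 belongs to the large subunit despite its letter. The subunits had like medians of 5.46 FPKM for 39S genes and 5.96 FPKM for 28S genes.

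**Figure D1:**
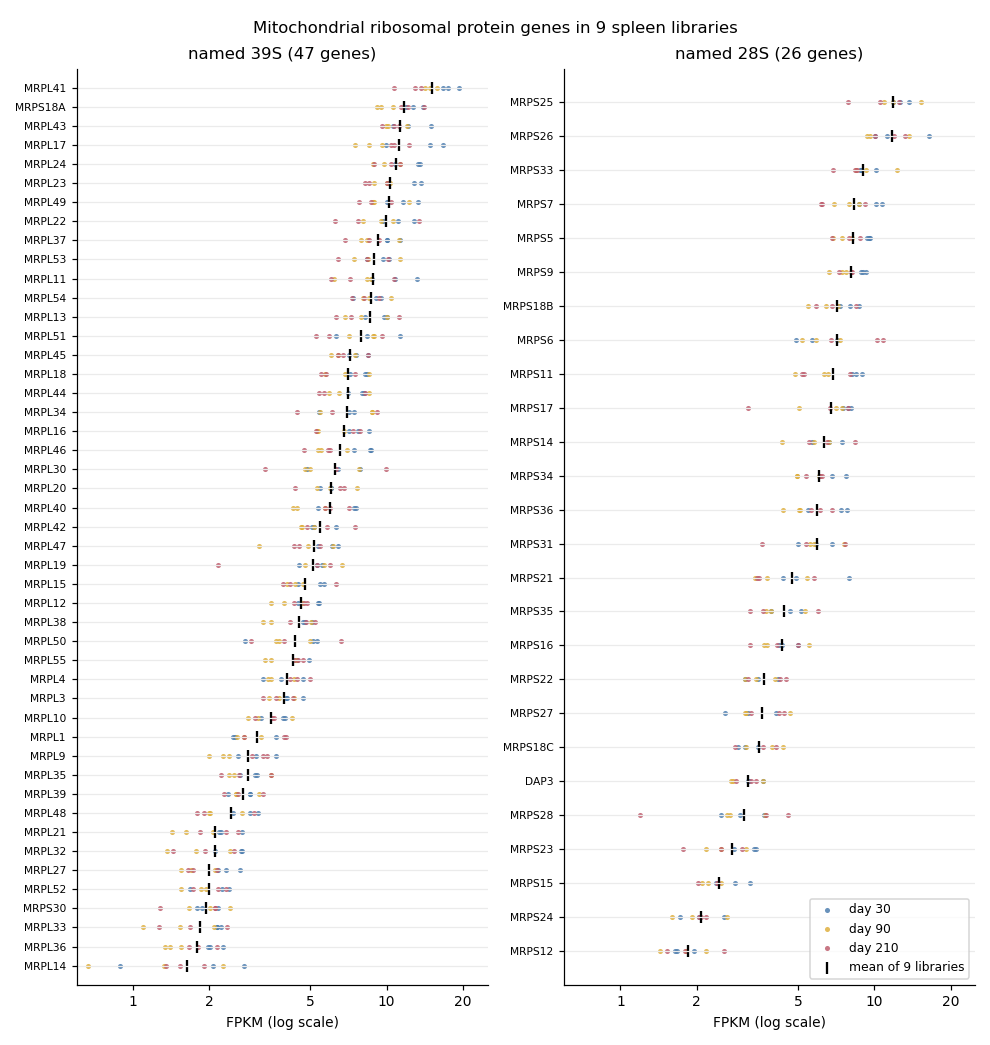
FPKM of each gene in every library (points, coloured by age, log scale) with the mean of the 9 libraries (black mark), for genes named 39S (left) and 28S (right). Points of the 3 ages lie among each other for most genes, and the means run between 1.64 FPKM for MRPL14 and 15.1 FPKM for MRPL41.

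These levels depend on the length each locus was given. Dividing a gene's counts by its FPKM and by the summed counts of the library gives an approximate length behind the FPKM. It had a median of 1.33 kb over the 73 genes. For MRPL41 it was 0.522 kb although the locus spans 0.408 kb. The values in kb thus run too long, at least there, while ratios between genes do not depend on the summed counts. The approximate length was under 1 kb for 27 genes and over 5 kb for 16, among them MRPS30 (16.5 kb), DAP3 (10.7 kb) and MRPL10 (9.60 kb). A long assembled locus spreads the reads of a short mRNA over many bases, so the order of levels is an order of loci. MRPS6 stood apart with 29.3 kb, 21.9 times the value of the median gene, and alone held 19.3% of the reads counted on the 73 genes.

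Between the ages, 1 of the 73 genes passed the test, in 1 of 3 comparisons. In the fit of all 9 libraries with edgeR's quasi-likelihood test, none of the 73 genes passed for any difference among the ages at a Benjamini-Hochberg adjusted p under 0.05 over all loci (3 at an unadjusted p under 0.05, beside 26% of all loci). The share of all loci that passed was 7.64%. None passed at day 90 against day 30 (2 at an unadjusted p under 0.05, beside 23.1% of all loci), where 6.08% of all loci passed, 2.06% as higher and 4.02% as lower. None passed at day 210 against day 90 (5 at an unadjusted p under 0.05, beside 14.1% of all loci), where 0.535% of all loci did, 0.348% as higher and 0.187% as lower. At day 210 against day 30 a single gene passed, MRPS6, which was higher, beside 6.24% of all loci, 2.55% as higher and 3.7% as lower. In that comparison 6 genes had an unadjusted p under 0.05, beside 23.7% of all loci. DESeq2 gave counts of 1, 0, 0 and 2 in these 4 tests, MRPS6 alone in the first and MRPS6 with MRPL46 in the last. On simulated counts for day 90 against day 30, DESeq2 made 56 false calls and edgeR made 4. DESeq2 recovered 72% of the genes changed by 1 on the log2 scale, and edgeR recovered 34%.

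The estimates were narrow enough to bound most changes. At day 210 against day 30 the 95% interval had a median half-width of 0.392 for the 73 genes, beside 0.4165 for all loci. Whether an interval lies within a given limit also depends on the size of the change. The 95% interval of the log2 change lay within a 2-fold change either way for 68 of 73 genes in each of the 3 comparisons, against 73%, 77.6% and 72.9% of all loci at day 90 against day 30, day 210 against day 90 and day 210 against day 30. The genes whose interval reached beyond it at day 210 against day 30 were MRPS21, MRPL14, MRPS28 and MRPS6, together with MRPL11, whose interval ended at the limit. The libraries of day 210 and day 30 did not overlap for 8 genes, beside 25.6% of all loci, with day 210 above in 1 (12.4% of all loci) and below in 7 (13.2% of all loci). Those of day 90 and day 30 did not overlap for 13 genes, beside 33.6% of all loci, with day 90 above in 8 (16.9%) and below in 5 (16.7%). Those of day 210 and day 90 did not overlap for 10 genes, beside 19.4% of all loci, with day 210 above in 1 (9.91%) and below in 9 (9.53%).

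The medians lay slightly below 0 at day 210. The median log2 change of the 73 genes was -0.109 at day 210 against day 30, with 52 genes below 0 beside 49.4% of all loci. At day 210 against day 90 it was -0.115, again with 52 genes below 0, beside 50% of all loci. At day 90 against day 30 it was -0.040 with 41 genes below 0, beside 49.6% of all loci, and the median over all loci lay within 0.005 of 0 in each comparison. On the authors' FPKM, limma with log2(FPKM + 1) moved the median of all loci to -0.148 at day 90 against day 30 and 0.108 at day 210 against day 90. Relative to those medians the 73 genes stood at -0.058 and -0.075, but the second median itself was 0.033, so the direction against 0 turned with the scaling. The size of the median depended on single libraries. The median at day 210 against day 30 was -0.049 to -0.229 when each library was left out in turn, the last without day 210 replicate 1.

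**Figure D2:**
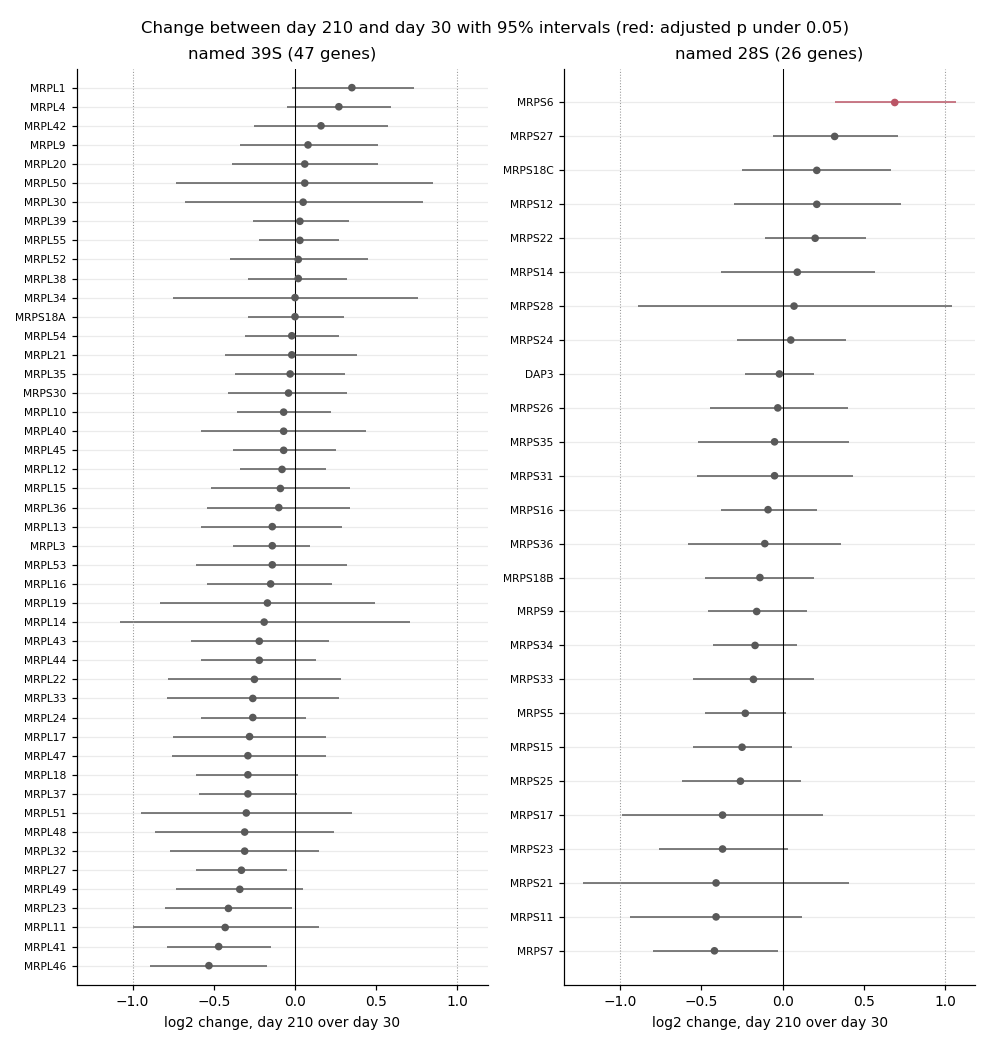
Log2 change between day 210 and day 30 (points) with 95% intervals (lines) for genes named 39S (left) and 28S (right), from edgeR; dotted lines mark a 2-fold change. The only red point is MRPS6 at 0.69, and 52 of the 73 genes lie below 0.

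MRPS6, the counterpart of bacterial S6, which pairs with S18 in the small subunit of bacteria, was the gene that passed. In CPM (read counts scaled to the size of the library, as in the fit) it had 144, 172 and 194 in the day 30 libraries, 205, 185 and 219 in the day 90 libraries, and 303, 308 and 214 in the day 210 libraries. The day 210 libraries all lay above the day 30 libraries, with replicate 3 of day 210 closest to them and inside the range of day 90. The log2 change at day 210 against day 30 was 0.69 ± 0.17 (SE; 95% interval 0.32 to 1.07; edgeR adjusted p = 0.0432). At day 210 against day 90 it was 0.44 ± 0.17 (adjusted p = 0.280), and at day 90 against day 30 it was 0.25 ± 0.17 (adjusted p = 0.405). In FPKM the values were 10.8, 10.3 and 6.73 at day 210 and 4.94, 5.69 and 7.14 at day 30, so on that scale the ages overlapped, and limma on log2(FPKM + 1) gave an adjusted p of 0.133. Leaving out any of 7 of the 9 libraries ended the call, and the adjusted p reached 0.135 when day 30 replicate 1 was removed. It was kept without day 30 replicate 3 (adjusted p = 0.0461) and without day 210 replicate 3 (adjusted p = 0.0204).

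What was counted as MRPS6 was a wide locus. It spanned 78.8 kb at positions 177592083 to 177670882 on the plus strand of chromosome 13, in the coordinates of the deposited table, whose build is not certain. In RefSeq's Sscrofa11.1 annotation the gene SLC5A3, a myo-inositol transporter, lies inside MRPS6, and no locus of the deposited table carried its name, so reads of the 2 genes could not be told apart. MRPS27 was the only other gene of the 71 looked up there that had a protein-coding gene, PTCD2, inside it. An unnamed locus on the same strand overlapped the 3′ end of the MRPS6 locus and had 0.840, 1.78 and 2.24 FPKM at day 210 and 0.434, 0.483 and 1.06 FPKM at day 30, with ranges that overlapped. Summed markers of plasma cells were at 967 to 1233 FPKM at day 210 and 403 to 472 FPKM at day 30. All 5 genes had a log2 change above 0 and 4 passed the test as higher. Summed markers of T cells were at 93.2 to 116 FPKM at day 210 and 69.3 to 72.7 FPKM at day 30. All 7 had a change above 0 and 2 passed as higher. Summed erythroid markers were at 10.8 to 26.9 FPKM at day 210 and 112 to 241 FPKM at day 30. All 10 had a change below 0 and 9 passed as lower. KLF1 was at 0 FPKM in 2 of the day 210 libraries. Summed markers of endothelium were at 24.6 to 33.3 FPKM at day 210 and 58.4 to 66.9 FPKM at day 30. All 5 had a change below 0 and 4 passed as lower. Those of fibroblasts were at 31.6 to 60.5 FPKM at day 210 and 103 to 130 FPKM at day 30. All 4 had a change below 0 and 3 passed as lower. Of all loci, 2.55% passed as higher and 3.7% as lower at day 210 against day 30. Summed markers of red pulp macrophages were at 1543, 1542 and 1001 FPKM at day 210 and 1725, 1464.5 and 1237 FPKM at day 30, with overlap. Of these 6 genes 1 passed as higher and 2 had a log2 change below 0. Among them, CD163 had 145, 148 and 90.4 FPKM at day 210 and 61.0, 72.2 and 57.2 FPKM at day 30. The part of these shifts in the MRPS6 values was not tested. The share of all counted reads on the 73 genes without MRPS6 was 0.0840% to 0.0920% at day 210 and 0.0860% to 0.0968% at day 30.

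**Figure D3:**
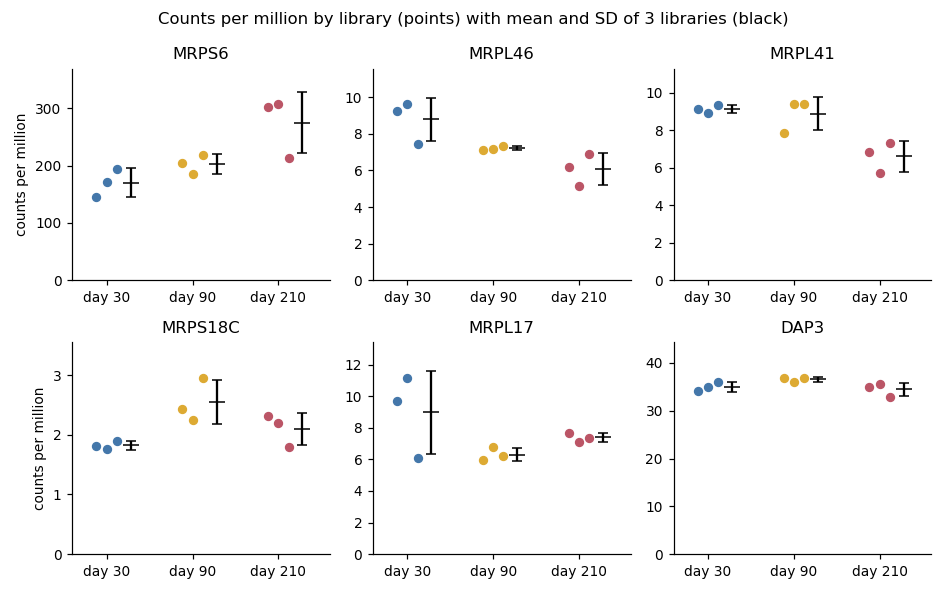
CPM of 6 genes in each library (coloured points) with the mean and SD of 3 libraries (black), at days 30, 90 and 210; each vertical axis starts at 0. MRPS6 reaches 303 and 308 in 2 day 210 libraries, while DAP3 keeps between 33.0 and 36.9 in all 9.

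None of the other genes of the small subunit passed the test in any comparison of 2 ages, beside 0.535% to 6.24% of all loci. DAP3, a GTP-binding protein of the small subunit also known as a death-associated protein, had the lowest spread of the 73, with an SD within ages of 0.043 in log2 CPM. It had 35.1, 35.6 and 33.0 CPM at day 210 and 34.0, 34.9 and 36.1 CPM at day 30, a log2 change of -0.02 ± 0.09. MRPS12 had 0.21 ± 0.23 and MRPS22, a mitochondria-specific protein altered in a human mitochondrial disease, had 0.20 ± 0.14 at day 210 against day 30. MRPS27, a protein of the pentatricopeptide repeat family, had 0.32 ± 0.17 (adjusted p = 0.288), with 23.3, 18.5 and 25.2 CPM at day 210 and 14.2, 18.1 and 21.1 CPM at day 30, which overlapped. On the other side, MRPS7 had -0.42 ± 0.17 (adjusted p = 0.179) and MRPS11 had -0.41 ± 0.24 (adjusted p = 0.322), both counterparts of bacterial proteins. MRPS5 (-0.23 ± 0.11), MRPS34 (-0.17 ± 0.12) and MRPS16 (-0.09 ± 0.13) had smaller values. The loci of MRPS34 and MRPS16 also carry the names of NME3 and DNAJC9, so their reads belong to both genes.

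The 3 counterparts of bacterial S18 could be set side by side. MRPS18A, in the large subunit, had 0.00 ± 0.13 at day 210 against day 30, while the small subunit proteins MRPS18B and MRPS18C had -0.14 ± 0.15 and 0.21 ± 0.20. At day 90 against day 30 MRPS18C had the highest change of all 73 genes, 0.48 ± 0.20 (adjusted p = 0.198). It had 2.44, 2.24 and 2.96 CPM at day 90 and 1.81, 1.76 and 1.90 CPM at day 30, without overlap. MRPS18A had -0.20 ± 0.13 and MRPS18B had -0.13 ± 0.15 in the same comparison, and whether MRPS18C differed from them was not tested. MRPS36, which in human cells has also been assigned to the 2-oxoglutarate dehydrogenase complex, had -0.30 ± 0.21 at day 90 against day 30 and -0.11 ± 0.21 at day 210 against day 30.

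In the large subunit the 2 lowest values at day 210 against day 30 belonged to the mitochondria-specific proteins MRPL46 and MRPL41. MRPL46 had 6.16, 5.17 and 6.88 CPM at day 210 and 9.27, 9.64 and 7.46 CPM at day 30. The ages did not overlap, and the log2 change was -0.53 ± 0.16 (adjusted p = 0.0838 in edgeR and 0.0432 in DESeq2). MRPL41, the gene with the highest level, had 6.82, 5.70 and 7.30 CPM at day 210 and 9.13, 8.94 and 9.34 CPM at day 30. Its day 30 libraries lay close together and all above those of day 210, with a log2 change of -0.47 ± 0.14 (adjusted p = 0.0887). By step, MRPL41 had -0.43 ± 0.14 at day 210 against day 90 (adjusted p = 0.225) and -0.04 ± 0.14 at day 90 against day 30. MRPL11, at the base of the stalk that receives translation factors, had -0.43 ± 0.26. MRPL37 had -0.29 ± 0.13 and MRPL44, which has a fold like that of RNase III, had -0.22 ± 0.16.

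Proteins around the exit tunnel and the stalks showed both signs. MRPL4, whose bacterial counterpart lines the tunnel, had 0.27 ± 0.14 (adjusted p = 0.292), and MRPL1, of the stalk at the tRNA exit, had 0.35 ± 0.17 (adjusted p = 0.240). MRPL1 had 15.7, 17.1 and 12.4 CPM at day 210 and 10.5, 10.7 and 14.3 CPM at day 30, where replicate 3 of each age crossed over. MRPL45, which holds the ribosome at the inner membrane, had -0.07 ± 0.14, and MRPL3, a core protein of the large subunit, had -0.14 ± 0.10. MRPL12, the stalk protein that also binds mitochondrial RNA polymerase, had -0.08 ± 0.12, although its locus also names the mitochondrial dicarboxylate carrier. MRPS30 had -0.04 ± 0.16.

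In the first step, day 90 against day 30, the lowest change was that of MRPL17, with -0.51 ± 0.21 (adjusted p = 0.185). It had 5.95, 6.76 and 6.20 CPM at day 90 and 9.70, 11.2 and 6.06 CPM at day 30, so that a single day 30 library, replicate 3, sat with day 90. Without that library MRPL17 passed (log2 change -0.73, adjusted p = 0.0316). MRPL36 (-0.34 ± 0.20), MRPS11 (-0.33 ± 0.24) and MRPS36 followed, and on the positive side MRPS18C was followed by MRPL34 (0.44 ± 0.33), MRPL19 (0.34 ± 0.29) and MRPS27 (0.33 ± 0.17).

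In the second step, day 210 against day 90, MRPL19 had the lowest value, -0.51 ± 0.29 (adjusted p = 0.484). Its values were 6.67, 6.35 and 2.74 CPM at day 210 and 7.42, 8.06 and 7.07 CPM at day 90, so replicate 3 of day 210 held most of the difference, and the change was -0.21 without it. MRPS33, with 3.33, 3.59 and 3.07 CPM at day 210 and 4.78, 4.63 and 4.42 CPM at day 90, had -0.47 ± 0.17 (adjusted p = 0.246), and its libraries did not overlap. MRPS25 had -0.44 ± 0.16 and MRPL34 had -0.44 ± 0.33. The highest values were those of MRPS6, MRPL9 (0.37 ± 0.19), MRPL21 (0.26 ± 0.18) and MRPL36 (0.24 ± 0.20).

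The genes can be split by subunit and by origin. At day 210 against day 30 the median log2 change was -0.142 for the 47 genes named 39S and -0.099 for the 26 named 28S, with 13 and 8 genes above 0. It was -0.144 for the 40 genes with a bacterial number and -0.065 for the 33 without, with 11 and 10 above 0. At day 210 against day 90 the order of the last pair was the reverse, with -0.092 for the 40 and -0.166 for the 33. The summed FPKM of the 39S genes was 1.77 to 2.04 times that of the 28S genes in the day 30 libraries, 1.84 to 1.93 times at day 90 and 1.80 to 1.91 times at day 210. These sums hold 47 and 26 genes, so the ratio carries the number of genes as well as their levels.

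Within an age the genes varied by a median SD of 0.201 on the log2 scale, beside 0.229 for all loci. Over the 9 libraries the widest in log2 FPKM were MRPL14 (SD 0.65), MRPS28 (SD 0.56) and MRPL30 (SD 0.48), and the narrowest MRPS9 (SD 0.16), DAP3 (SD 0.16) and MRPL3 (SD 0.17). In log2 CPM the widest were MRPS28 (SD 0.56), MRPL14 (SD 0.55) and MRPL19 (SD 0.46). MRPS28 had 2.48, 3.69 and 2.95 FPKM at day 30, 2.62, 2.70 and 3.71 FPKM at day 90, and 4.55, 3.75 and 1.19 FPKM at day 210. Its lowest value, like the lowest of MRPL19 and MRPL30, fell in replicate 3 of day 210.

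Libraries also differed in their mean over the 73 genes, with an SD within ages of 0.1 on the log2 scale. Day 30 replicate 2 stood at a mean of 0.157 above the 9-library mean of each gene on the log2 scale and held the highest value for 26 of the 73 genes (35.6%, beside 12.7% of all loci). Day 210 replicate 2 stood at -0.141 and held the lowest value for 22 genes (30.1%, beside 15.4% of all loci). Day 210 replicate 3 stood at -0.156 and held the lowest for 20 (27.4%, beside 16.2% of all loci). Day 210 replicate 1 stood at 0.070, above 2 of the 3 day 30 libraries. The same 3 libraries were the extremes for cytosolic ribosomal proteins (0.254 in day 30 replicate 2, -0.237 in day 210 replicate 2 and -0.312 in day 210 replicate 3) and for the respiratory chain (0.293, -0.265 and -0.229 in the same order). Summed markers of proliferation were 86.5, 26.5 and 58.5 FPKM in the day 210 libraries and 85.1, 69.98 and 71.2 FPKM in the day 30 libraries. At day 210 against day 30 none of the 8 genes passed, beside 6.24% of all loci, and all 8 had a log2 change below 0. Their part in these shifts was not tested.

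**Figure D4:**
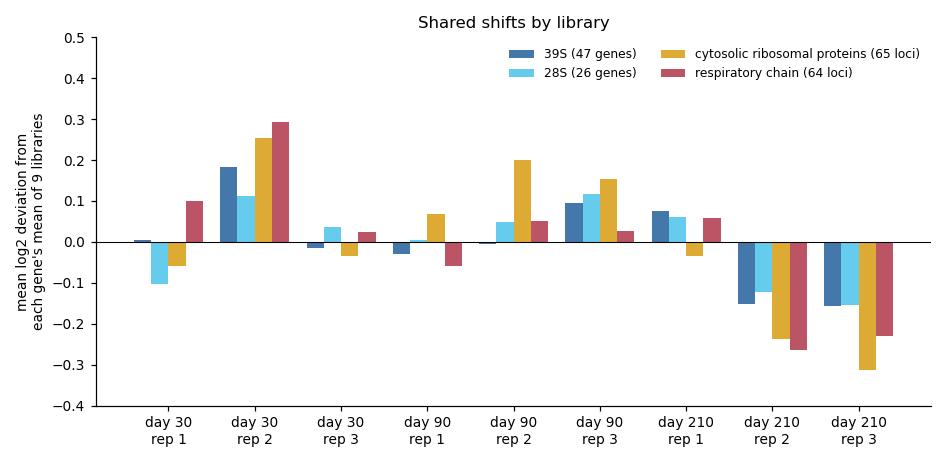
Mean log2 deviation of each library from the gene's own mean over 9 libraries, for genes named 39S and 28S, cytosolic ribosomal proteins and nuclear respiratory chain genes. All 4 groups are above 0 in day 30 replicate 2 and below 0 in day 210 replicates 2 and 3.

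Of 25 factors for assembly of the mitochondrial ribosome and modification of its rRNA, 1 passed at day 90 against day 30, beside 6.08% of all loci, and at day 210 against day 30, beside 6.24%, and it was lower in both. This was ERAL1, a GTPase that binds the rRNA of the small subunit, with 56.8, 28 and 38 CPM at day 30, 15.8, 17.1 and 17.5 CPM at day 90 and 15.3, 16.1 and 18.4 CPM at day 210. All day 30 libraries lay above the rest and were themselves wide apart. ERAL1 fell by 1.29 ± 0.23 on the log2 scale at day 90 against day 30 (edgeR adjusted p = 0.0161) and by 1.3 ± 0.23 at day 210 against day 30 (adjusted p = 0.0158). The highest of the 3 values, in day 30 replicate 1, was in the library with the highest sum of erythroid markers (241 FPKM, beside 112 in replicate 2 and 134 in replicate 3), and the part of those cells was not tested. Endothelial and fibroblast markers were also higher at day 30, as given above. Removing day 90 replicate 1 (adjusted p = 0.0682) or replicate 2 (adjusted p = 0.0567) ended the first call, and removing day 210 replicate 2 (adjusted p = 0.0573) ended the second. The median of the 25 was 0.094 at day 90 against day 30 and 0.032 at day 210 against day 30.

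None of 15 mitochondrial translation factors, 12 mitochondrial tRNA ligases, 4 mitochondrial transcription factors, 7 transcription regulators of mitochondrial genes and 5 mitoribosomal proteins with other names passed in any comparison, where 6.08% of all loci passed at day 90 against day 30, 0.535% at day 210 against day 90 and 6.24% at day 210 against day 30. Over these 43 genes 2 reached an adjusted p under 0.1, both at day 90 against day 30. MRPL58, a release factor that rescues stalled ribosomes, had -0.46 ± 0.14 (adjusted p = 0.0885), with 15.4, 12.3 and 14.6 CPM at day 90 and 19.8, 20.4 and 17.9 CPM at day 30, at a locus that also carries another gene name. PPARGC1B, a coactivator of mitochondrial genes, had -0.44 ± 0.13 (adjusted p = 0.0853) in that comparison and 0.45 ± 0.13 at day 210 against day 90 (adjusted p = 0.174). TFAM, which packages mitochondrial DNA and starts its transcription, had -0.45 ± 0.18 at day 210 against day 90 (adjusted p = 0.312). MTRFR, another rescue factor, had -0.75 ± 0.31 at day 210 against day 30 (adjusted p = 0.187) at about 1 CPM. GABPA, part of a factor that binds many promoters of mitochondrial genes, had -0.03 ± 0.15 in that comparison, at a locus that also carries another gene name.

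The cytosolic ribosome and the respiratory chain also had medians below 0 at day 210. Of 65 cytosolic ribosomal protein loci, 59 had a log2 change below 0 at day 210 against day 90, beside 50% of all loci. There, 2 passed as lower (0.535% of all loci passed), 60S ribosomal protein L10a with -0.71 ± 0.12 (adjusted p = 0.0415) and L12 with -0.88 ± 0.15 (adjusted p = 0.0429). Each of these calls was lost without any of 7 of the 9 libraries. The median of the 65 was -0.320 in that comparison, beside -0.115 for the 73 mitochondrial genes, and 36 of the 65 had libraries that did not overlap, beside 19.4% of all loci. At day 210 against day 30, where 6.24% of all loci passed, 1 of the 65 passed, L12 with -0.93 ± 0.15 (adjusted p = 0.0118), and its call was kept in all 17 alternatives. In the same comparison 1 of 64 nuclear respiratory chain loci passed, cytochrome b-c1 complex subunit 9 with -0.91 ± 0.18 (adjusted p = 0.0217). Removing day 30 replicate 2 (adjusted p = 0.0805) or day 210 replicate 2 (adjusted p = 0.0721) ended that call. The median of the 64 was -0.272, beside -0.255 for the cytosolic ribosomal proteins and -0.109 for the mitochondrial ones, and whether these medians differ was not tested.

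Positions were also compared. The genes lay on 17 chromosomes, with 10 on chromosome 2, none on X and 2 on unplaced scaffolds. The start of 23 of the 73 (31.5%) lay within 1000 bp of the start of a locus on the opposite strand, as against 11.99% of the 10601 named loci tested, a description of the assembled loci. Among the partners were other mitochondrial genes. MRPS11 and MRPL46 lay head to head 387 bp apart at chromosome 1, positions 63034719 to 63045465 and 63025181 to 63034332. MRPS12 was paired with mitochondrial serine tRNA ligase and MRPL47 with a locus whose name begins with NADH dehydrogenase. MRPL43 was paired with the DNA helicase Twinkle and MRPL35 with the cristae protein MIC60. Other partners were the ubiquitin-like protein FUBI (MRPL49), the chaperonin subunit TCP1 (MRPL18) and the proteasome subunit alpha type-2 (MRPL32).

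Of these partners 21 were tested and none passed in any comparison. The shares of all loci that passed were 6.08% at day 90 against day 30, 0.535% at day 210 against day 90 and 6.24% at day 210 against day 30. With shares this small, the lack of a call among 21 says little about them. Over all 23 genes, with a tested partner or not, the mean FPKM of the partner was between 0.0369 and 13.4 times that of the gene it faced. MRPS11 and MRPL46 both stood below 0 at day 210 against day 30, with -0.41 ± 0.24 and -0.53 ± 0.16. MRPS7 with -0.42 faced GGA3 with 0.13, and MRPL37 with -0.29 faced an NADH-cytochrome b5 reductase-like gene with 0.46. In all, 8 of the 21 genes with a tested partner had the opposite sign to it, with MRPS11 and MRPL46 counted from both sides. Whether the counting used strand is not given in the sources used here, and 15 of the 73 genes (20.6%, beside 45.8% of stranded loci tested) overlapped a locus on the other strand, so reads of such pairs could be shared.

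**Figure D5:**
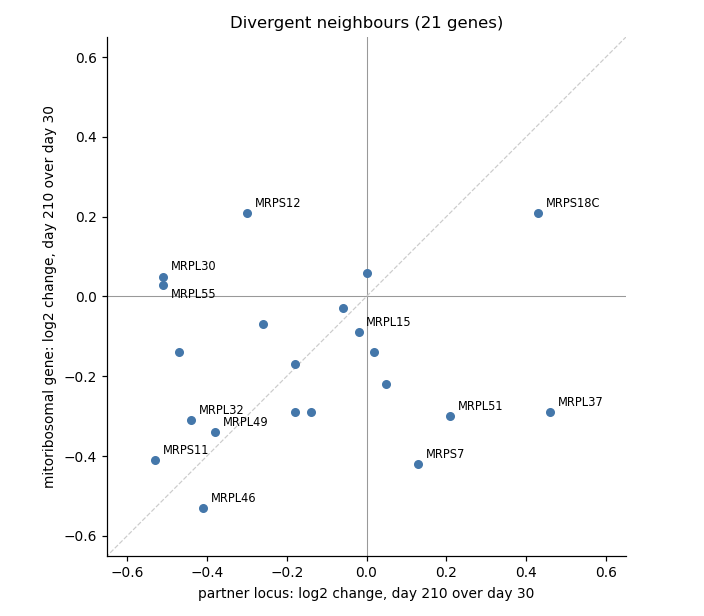
Log2 change at day 210 over day 30 of 21 mitochondrial ribosomal protein genes (vertical) and of the locus that starts within 1000 bp on the opposite strand (horizontal), with the line of equality dashed. MRPS11 and MRPL46 are each other's partner and lie at the lower left, while MRPS7 and MRPL37 lie at the lower right.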

How the data were processed

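Paired-end RNA sequencing of 9 spleen libraries was analysed from the deposited tables. Per the submitters' processing notes, HISAT2 2.0, StringTie 1.3.0 and Bowtie 0.12.2 were used and the build was given as mm8, a mouse build, although the deposited names and coordinates are those of pig. The labels disagree on poly(A) selection, and one protocol speaks of adipose tissue where the sample fields say spleen. The counting tool and strand are not given in the sources used here. The authors deposited raw read counts and FPKM per locus, and junction read counts per circular RNA. Counts of loci with a mean FPKM of at least 1 (19264) were tested with edgeR 4.0.16 (quasi-likelihood, TMM factors, 3 ages in 1 fit, R 4.3.3), and p-values were adjusted by Benjamini-Hochberg over all loci. SE is the log2 change divided by the root of F. On simulated counts for day 90 against day 30, edgeR recovered 34% of genes changed by 1 and 90% of those changed by 2 on the log2 scale, among 19264 genes, with 4 false calls. DESeq2 recovered 72% and 99% with 56 false calls. In the simulation 200 genes were changed, at day 90 only, drawn from loci above a minimum mean count. In the data 1171 loci passed in that comparison, so the recovery there may differ. Smaller changes were thus often missed in the simulation, and may be missed in the data.

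The genes, lists and tests were chosen with earlier results of these data known. Named were genes past the threshold, the 4 highest and 4 lowest changes per comparison, the 5 highest and 5 lowest levels, the 3 widest and 3 narrowest spreads, and a panel by role. Of each other list, genes past the threshold or the 2 with the smallest p were eligible. DESeq2 1.42.0 and limma 3.58.1 (log2(FPKM + 1) or + 0.1) were alternatives. Of 73 symbols, 72 matched RefSeq's Sscrofa11.1 table, which was used for names and neighbours. Sequences were not analysed here.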

Additional observations from a re-analysis of the deposited data

How the results depend on the processing

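The count of genes passing at day 210 against day 30 was 1 (MRPS6) and became 2 with DESeq2 and 0 without the FPKM filter, with limma on log2(FPKM + 1) or log2(FPKM + 0.1), with 2 ages in the fit and with the replicate block. Leaving out each library in turn gave 0 to 1 for that count, 0 to 1 for any age, 0 to 1 for day 90 against day 30 and 0 for day 210 against day 90. For any age DESeq2 gave 1. The median change at day 90 against day 30 was -0.206 and -0.221 with the 2 limma fits, and at day 210 against day 90 it was 0.033 and 0.040, where the median of all loci moved with it. With a library left out the medians were -0.065 to 0.046, -0.198 to -0.062 and -0.229 to -0.049 in the order of the 3 comparisons. RLE factors, summing the loci of a name and leaving out loci with several names changed no count. Same-numbered libraries had correlations of -0.071 to 0.099 in their deviations, and libraries of different numbers -0.119 to 0.118. This gave no sign that the numbers pair the samples, but it cannot exclude a pairing. The block gave 0 calls among the 73 genes in every test and 531 loci in all at day 210 against day 30. The single genes were those with the highest and lowest changes or a call, so keeping their sign says little. Of 534 alternative values none changed sign and 2 gained a call. The 42 losses came from called results only. At day 210 against day 30 MRPS6 lost its call in 12 of 18 alternatives and cytochrome b-c1 complex subunit 9 in 3 of 17. There ERAL1 lost it in 1 of 17 and L12 kept it in all 17. ERAL1 at day 90 against day 30 lost it in 2 of 17. L10a and L12 at day 210 against day 90 lost it in 12 of 17 each. The causes were not tested. MRPS6 kept a log2 change of 0.56 to 0.84 at day 210 against day 30, with adjusted p of 0.0030 to 0.145. The 95% intervals at day 210 against day 30 were widest for MRPS28, MRPL14 and MRPS21.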

Other observations

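Of 18908 circular RNAs in the deposited table, 21 were assigned by the description of their host to 12 of the 73 genes. They had 109 of 116963 junction reads (0.0932%), and 12 of the 21 were seen in 1 library. A circular RNA assigned to MRPL1, with 3 junction reads, lay on the strand opposite to that locus. The most frequent came from MRPS5, with 4 exons and 30 junction reads in 7 of 9 libraries. By library these were 4, 5 and 6 in the day 30 samples, 0, 0 and 4 in the day 90 samples, and 6, 4 and 1 in the day 210 samples. The next came from MRPL42 with 22 junction reads in 7 libraries, followed by MRPL37 with 9 in 5 libraries and MRPS27 with 9 in 3 libraries. They were too few for a test. Hosts outside the 73 genes gave 2 more with a 39S or 28S name, MRPL2 with 2 junction reads and MRPS10 with 1.

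The loci set aside were low copies of a name. The second locus of MRPL23, on chromosome 4, had 1.64, 3.12 and 2.01 FPKM at day 210 and 3.40, 2.89 and 2.89 FPKM at day 30, and the second locus of MRPL15, on chromosome 2, had a mean of 1.19 FPKM. They span 303 and 875 bp.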
